A study of Mus musculus with 16 samples.

Results

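LMAN1 and 8 relatives or partners of it were followed through the epithelial transcriptome: Lman1, Lman1l, Lman2, Lman2l, Mcfd2, Surf4, Ergic1, Ergic2 and Ergic3. These 9 genes were chosen by symbol, as the family of LMAN1 and the cargo receptors and intermediate compartment proteins that work beside it, out of 49315 genes in the count table. All 9 were found, each under 1 Ensembl identifier, and 8 of them passed the filter on low counts, as did 15993 genes in all. On GRCm38 they lie at chr18:65980738-66022580 (Lman1), chr9:57607085-57620774 (Lman1l), chr13:55343833-55362783 (Lman2), chr1:36419871-36445271 (Lman2l), chr17:87254443-87265935 (Mcfd2), chr2:26920040-26933928 (Surf4), chr17:26561489-26656934 (Ergic1), chr6:148179079-148212374 (Ergic2) and chr2:156008045-156018279 (Ergic3). The annotated spans of Lman2l, Surf4, Ergic1 and Ergic2 overlap genes on the opposite strand (Fer1l5, Surf2, Dusp1 and Far2). The strand setting of the counting is not given in the sources used here. Where the exons of such a pair also overlap, their reads may not be told apart. The question asked was whether any relative, or the partner Mcfd2, moved with Lman1 or against it in the libraries labelled KO.

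Mouse tracheal epithelial cells (MTECs) are primary airway cells grown on porous inserts and differentiated with air above them and medium below. They were taken from male and female mice that were wild-type (WT) or knockout (KO) for LMAN1, littermates of heterozygous breeding on the C57BL/6J background, and were left naive or given house dust mite (HDM) extract at 20 µg/ml overnight. The 8 groups were female WT naive, female WT HDM, female KO naive, female KO HDM, and the same 4 in males, with 2 libraries in each and 16 in all. Tracheas of several mice were pooled for the cultures, and the sources used here do not say which exons the KO allele lacks, so a count over the whole gene cannot check the deleted part.

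LMAN1 is a mannose-binding lectin that cycles between the endoplasmic reticulum (ER) and the Golgi through the ER-Golgi intermediate compartment. With its calcium-binding partner MCFD2 it forms a cargo receptor that gathers glycoproteins, blood coagulation factors V and VIII among them, into COPII-coated vesicles, and loss of either protein causes a combined deficiency of both factors in people. LMAN2 and LMAN2L are lectins of the same fold that act elsewhere along this route, SURF4 is a receptor for a separate set of soluble cargo, and ERGIC1, ERGIC2 and ERGIC3 are membrane proteins that cycle between the same compartments.

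The libraries held between 21860698 and 43442188 counts. Epithelial markers were high in all of them (summed level of Epcam, Cdh1, Krt8 and Krt18 between 2900 and 7469 CPM, the count as a share of the library scaled with TMM factors), and endothelial markers stayed at or under 1.31 CPM. The secretory marker Cyp2f2 reached 18918 CPM, whereas Scgb1a1, which defines club cells, was at or under 3.75 CPM. Scgb3a2 lay between 3.25 and 357 CPM, Bpifa1 between 1.23 and 259 CPM and Muc5b between 1.58 and 99.8 CPM. Of the ciliated markers, Foxj1 was between 44.8 and 97.5 CPM and Cfap43 between 13.6 and 20.7 CPM. Dnah5 was at or under 11.4 CPM, Tekt1 at or under 6.34 CPM and Ccdc39 at or under 4.69 CPM. The 2 female WT HDM libraries stood apart: their summed secretory markers were 3761 and 4651 CPM against 7217 to 19581 CPM in the other 14 libraries, their basal markers were 1969 and 3976 CPM against 6500 to 12758 CPM, and their epithelial markers were 7256 and 7469 CPM against 2900 to 5651 CPM. Summed smooth muscle markers, nearly all Acta2, were 274 and 444 CPM there and at most 133 CPM elsewhere. Summed fibroblast markers were 27.1 and 423 CPM there, between 19.2 and 374.5 CPM in female WT naive libraries and at most 108 CPM in the other 6 groups. The female KO HDM libraries were shifted as well, with the lowest secretory markers of the other 7 groups (7217 and 7869 CPM) and the highest epithelial markers (5213 and 5651 CPM). In bulk libraries fewer cells of a type and less RNA per cell cannot be told apart.

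Promoter sequence is shown for 3 members whose level differed between the groups given HDM (Mcfd2, Surf4 and Ergic1) and for Lman2, which passed the threshold of edgeR in none of the comparisons as fitted here, although DESeq2 called it in 1 of them. Each line gives the 250 bases before the start of the gene in RefSeq, on the coding strand of GRCm38.p6, with matches to the GC box (GGGCGG, either strand) in capitals. Mcfd2 is at chr17:87265948-87266197, minus strand, Surf4 at chr2:26933512-26933761, minus strand, Ergic1 at chr17:26561262-26561511, plus strand, and Lman2 at chr13:55362784-55363033, minus strand.
Mcfd2: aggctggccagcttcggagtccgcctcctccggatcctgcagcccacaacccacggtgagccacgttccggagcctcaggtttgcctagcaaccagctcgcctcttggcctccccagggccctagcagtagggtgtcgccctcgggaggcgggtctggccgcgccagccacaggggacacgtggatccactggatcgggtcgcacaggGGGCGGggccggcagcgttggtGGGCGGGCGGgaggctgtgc
Surf4: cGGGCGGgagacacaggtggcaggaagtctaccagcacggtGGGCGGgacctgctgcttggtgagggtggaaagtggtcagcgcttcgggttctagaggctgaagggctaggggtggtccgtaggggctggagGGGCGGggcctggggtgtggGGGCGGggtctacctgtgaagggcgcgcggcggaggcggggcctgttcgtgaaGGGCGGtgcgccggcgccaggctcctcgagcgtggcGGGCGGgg
Ergic1: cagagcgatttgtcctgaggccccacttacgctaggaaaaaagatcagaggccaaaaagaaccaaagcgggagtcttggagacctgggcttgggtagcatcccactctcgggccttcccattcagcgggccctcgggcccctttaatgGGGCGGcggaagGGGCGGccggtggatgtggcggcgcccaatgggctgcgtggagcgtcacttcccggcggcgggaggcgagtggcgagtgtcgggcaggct
Lman2: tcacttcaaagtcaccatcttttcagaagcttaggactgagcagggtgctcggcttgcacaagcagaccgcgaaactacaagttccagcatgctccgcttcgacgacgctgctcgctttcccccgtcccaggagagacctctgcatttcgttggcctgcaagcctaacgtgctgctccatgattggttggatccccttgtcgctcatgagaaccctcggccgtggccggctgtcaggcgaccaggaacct

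The Surf4 window held 6 GC boxes, the Mcfd2 window 3, of which 2 overlap, the Ergic1 window 2, and the Lman2 window 0. Of the 8 members with an entry in the promoter table (all but Lman1), 4 held a GC box in this window: Mcfd2, Surf4, Ergic1 and Ergic3. Lman2l and Ergic2 held 0 in it, although both were called higher with HDM in female WT MTECs, as given below. A relation of the GC box to the response was not tested. The same letters occurred in 32.7% of all 32851 promoters of this length. In a window of 300 bases that also takes in the start of the transcript, 5 members held one, Lman2l being added. A CCAAT box (CCAAT, either strand) was found in 4 members, Lman2l, Lman2, Ergic1 and Ergic3, against 33.8% of all promoters. Mcfd2 alone held an E-box (CACGTG, 6.02% of all promoters). The stress elements ERSE (0.113% of all promoters), ERSE-II (0.0304%) and UPRE (TGACGTGG, 0.563%), the CRE (TGACGTCA, 1.55%) and the AP-1 site (TGACTCA, 4.46%) were in none of the 8 windows.

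Per kilobase of merged exons, the members were present at widely different levels in the 8 WT libraries. Ergic3 was highest at 115.7 ± 17.0 CPM per kb (SD, n = 8), followed by Surf4 at 76.4 ± 11.2. Lman2 (25.7 ± 1.45), Mcfd2 (24.7 ± 3.48) and Ergic1 (24.7 ± 9.35 CPM per kb) came next and were closer to each other than the spread over libraries. Lman1 followed at 13.7 ± 1.62, Lman2l at 9.17 ± 1.37 and Ergic2 at 6.58 ± 1.01 CPM per kb. When the longest transcript was used as the length, Ergic1 moved from place 5 to place 3 and the rest of the order held.

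Lman1l, a lectin of the same family known mainly from other tissues, was close to absent. It had between 1 and 7 counts in a library, 58 in all 16, and 6 libraries were at or under 3 counts. It was not tested, and a difference between WT and KO was not detectable at this depth.

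**Figure D1:**
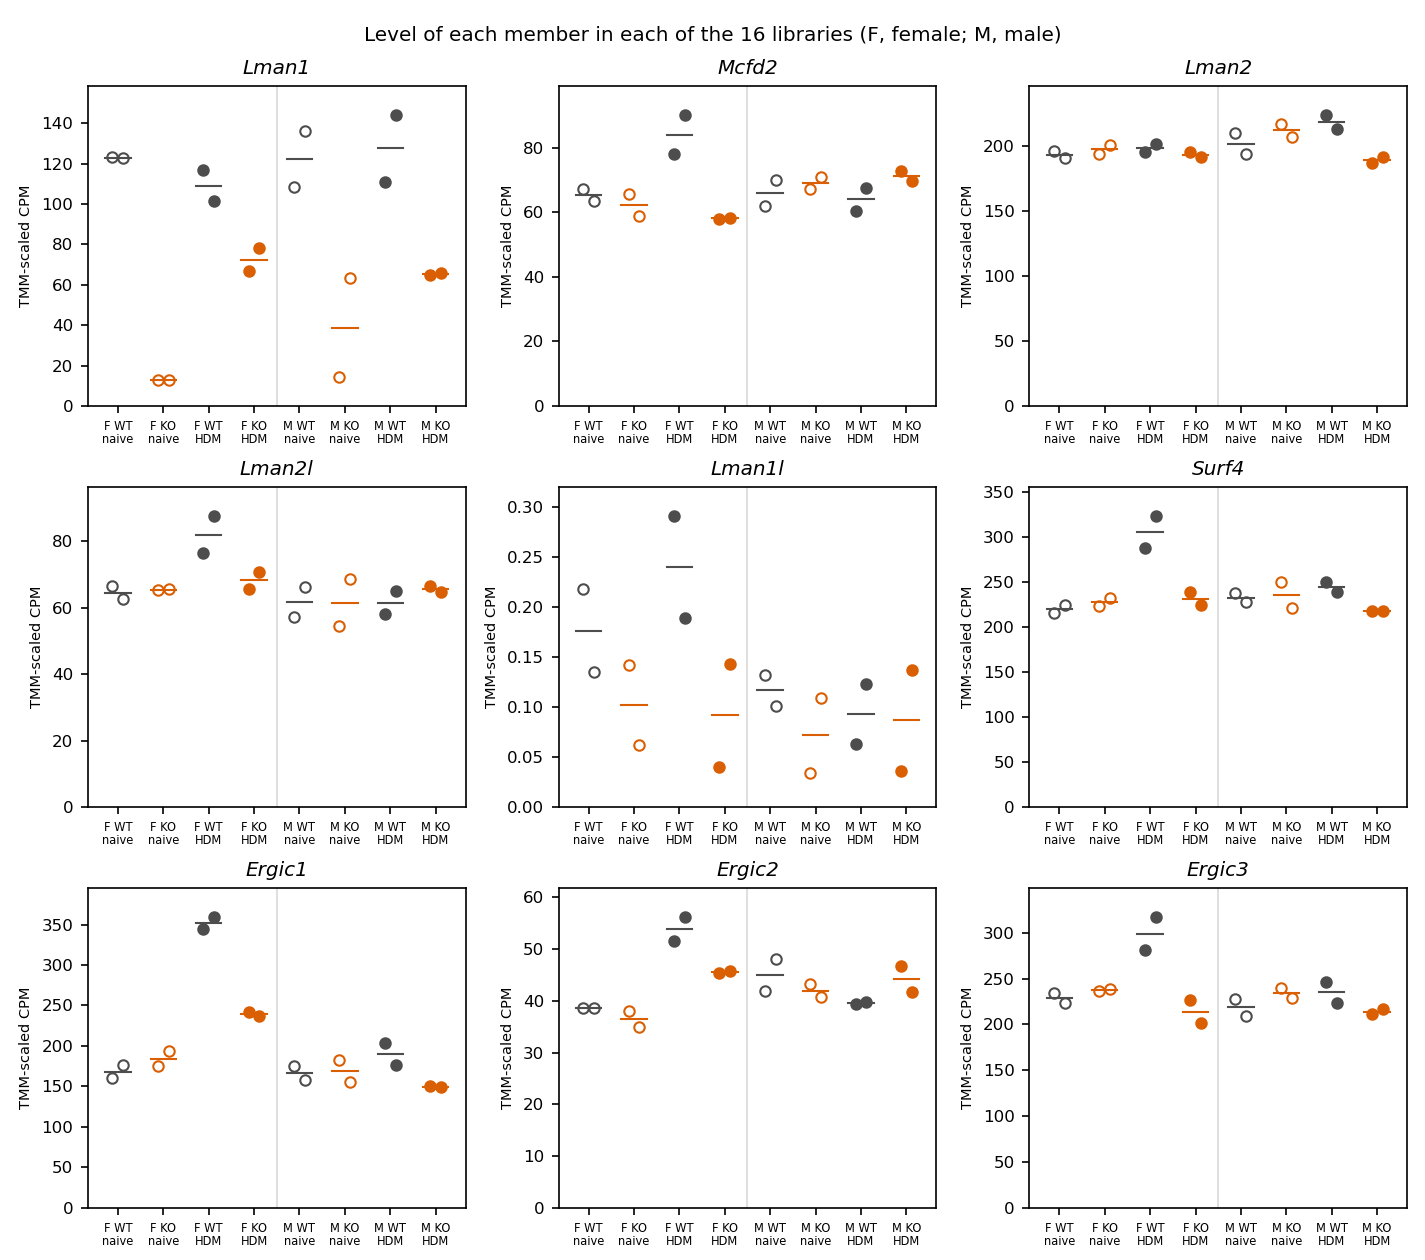
Level of each of the 9 members in each of the 16 libraries, in TMM-scaled CPM on linear axes that start at 0. Each point is 1 library, bars are the mean of the 2 libraries of a group, WT is grey, KO orange, naive open and HDM filled, with females left of the line and males right of it. Lman1 runs from 12.8 to 78.1 CPM in the libraries labelled KO and from 101 to 144 CPM in WT. For Lman2l, Mcfd2, Surf4, Ergic1, Ergic2 and Ergic3 both female WT HDM points lie above all others.

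Lman1 itself was lower in the 8 libraries labelled KO than in the 8 labelled WT, with no overlap, but far from equally so. In female KO naive MTECs it stood at 12.8 and 12.8 CPM, in male KO naive MTECs at 14.2 and 63.4 CPM. In female KO HDM MTECs it stood at 66.6 and 78.1 CPM and in male KO HDM MTECs at 65.0 and 66.0 CPM. The WT libraries held between 101 and 144 CPM, so that those labelled KO kept between 10.4% and 71.5% of the mean of the WT group of their own sex and treatment.

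Averaged over the 4 strata of sex and treatment, Lman1 fell by 1.62 on the log2 scale (SE 0.22, adjusted p = 0.00334, edgeR's quasi-likelihood F-test, adjusted after Benjamini and Hochberg), and 35 of 15993 genes had a lower fold change. It was the 1 member of 8 called in this average, where 5.51% of all genes were called (2.77% higher and 2.74% lower), and 4 members had an unadjusted p under 0.05. The two-sided exact permutation test of Lman1 within strata gave p = 0.00154, the smallest it allows, with a mean difference of -1.67 on the log2(CPM + 1) scale. Ergic1 came nearest among the relatives, at -0.19 (SE 0.05, adjusted p = 0.0504), and DESeq2 called 3 members in this average.

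In naive cultures, where the lowest Lman1 levels were found, the relatives differed little between the genotypes. The partner Mcfd2 read 67.1 and 63.6 CPM in female WT naive and 65.5 and 58.9 CPM in female KO naive libraries. In males it read 61.9 and 69.9 CPM in WT naive and 67.0 and 71.0 CPM in KO naive libraries. The WT and KO values of Mcfd2 thus overlapped in both sexes, while Lman1 in the female KO pair was at 10.4% of its WT mean.

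The lectins Lman2 and Lman2l overlapped too. Lman2 was between 191 and 210.1 CPM in the 4 WT naive libraries and between 194 and 217 CPM in the 4 KO naive libraries. Lman2l was between 57.2 and 66.4 CPM in WT naive and between 54.4 and 68.7 CPM in KO naive libraries. Surf4 lay between 216 and 237 CPM in WT naive and between 222 and 250.2 CPM in KO naive libraries, and Ergic1, Ergic2 and Ergic3 overlapped as well over both sexes. Within females Ergic2 (38.6 and 38.5 CPM in WT, 38.0 and 34.9 CPM in KO) and Ergic3 (234 and 223 against 236 and 239 CPM) did not overlap. Ergic3 did not overlap within males either, with 228 and 209 CPM in WT and 239 and 229 CPM in KO libraries. Its KO values were the higher ones in both sexes. In the naive average, however, the smallest p of any relative was 0.157 (edgeR, unadjusted) and 0.999 after adjustment. The share of all genes without overlap is not given here, so non-overlap of 2 against 2 libraries is a description only.

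No member was called between KO and WT naive MTECs in females (0% of all genes called) or in males (0%), nor in the average of both (0%). At an unadjusted p under 0.05 there was 1 member in each of the 3, Lman1, with fold changes of -3.26 in females, -1.65 in males and -2.46 on average (log2). Among female naive genes Lman1 had the smallest p of all 15993. DESeq2 called Lman1 in females and in the average and 0 members in males, and limma voom called 0 in each. Without male KO naive replicate 2 edgeR called Lman1 in females (adjusted p = 5.82e-06), in males (0.000186) and in the average (1.49e-06), with fold changes of -3.11 in males and -3.19 on average, and without male KO naive replicate 1 in females (5.69e-06) and in the average (4.49e-05). Over the alternatives in all 3, its adjusted p ranged from 2.21e-216, in the fit with no filter on low counts, to 1.

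The 7 relatives tested changed by between -0.09 and 0.08 (log2) in the naive average. Their 95% intervals ran from -0.22 for Ergic2 to 0.23 for Ergic1, or from 0.857-fold to 1.17-fold. Each interval is for 1 gene alone and was not widened for the 7 looked at. The average includes male KO naive replicate 2, where Lman1 was at 51.8% of its WT mean. For Mcfd2 the interval was -0.14 to 0.14. These intervals leave room for small shifts and show neither that the levels were equal nor that Lman1 was offset by another member.

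**Figure D2:**
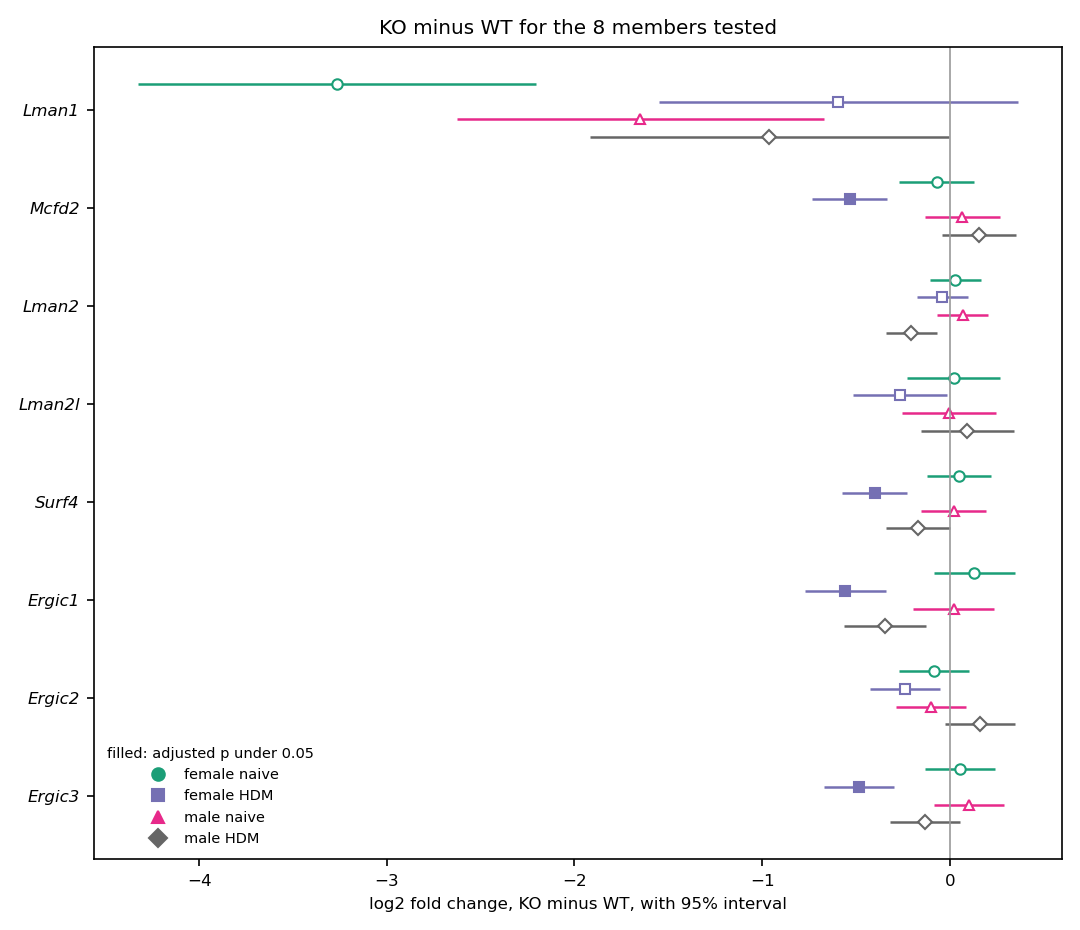
KO minus WT difference of the 8 members tested, as log2 fold change (x axis) with its 95% interval from edgeR, in each of the 4 strata of sex and treatment. Filled symbols have an adjusted p under 0.05: these are Mcfd2, Surf4, Ergic1 and Ergic3 in female HDM MTECs, while the naive symbols of the 7 relatives lie between -0.10 and 0.13.

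The male KO naive pair allowed a direct look, since the 2 cultures share sex, genotype and treatment and differ 4.48-fold in Lman1. From replicate 1 to replicate 2, Mcfd2 differed 1.06-fold, Lman2 0.954-fold, Surf4 0.886-fold, Ergic1 0.85-fold, Ergic2 0.942-fold and Ergic3 0.958-fold. Lman2l differed most among the tested relatives, 1.26-fold, from 54.4 to 68.7 CPM. With 1 pair of libraries this is a value and not a test.

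The ratio of Mcfd2 to Lman1 differed widely between libraries. Per kilobase of merged exons, the RNA of Mcfd2 was 1.46 to 2.78 times that of Lman1 in the WT libraries. In female KO naive libraries the ratio was 16.0 and 14.4, in male KO naive libraries 14.8 and 3.49. In KO HDM libraries it was 2.72 and 2.32 in females and 3.5 and 3.3 in males. With the longest transcript as the length the ratios were lower, from 1.08 to 2.04 in WT libraries and from 1.71 to 11.8 in libraries labelled KO, and with either length both female KO HDM values lay within the WT range. The proteins themselves were not measured in these libraries.

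Over the 16 libraries, the level of Mcfd2 had a Pearson correlation of 0.23 with that of Lman1 (Spearman 0.17; log2(CPM + 1)), and of -0.29 over the 8 WT libraries. No relative passed 0.38 against Lman1 over all 16, where Ergic2 was highest and Lman2 lowest (-0.05). Over the 8 WT libraries every tested relative was below 0, from -0.18 for Lman2 to -0.71 for Ergic3, with Surf4 at -0.60 and Ergic1 at -0.59. Over the 14 libraries without female WT HDM, Ergic3 was at -0.41, Surf4 at -0.12 and Ergic1 at -0.11. These are descriptions over libraries that share sex, genotype or treatment and may share culture pools. The genes with the pattern most like Lman1 reached no more than 0.71: BC006965 (0.71), Foxo1 (0.69), Tut7 (0.69), Gm7607 (0.69) and Seh1l (0.68). Over the 8 WT libraries Foxo1 fell to 0.04, and 0 of the 5 were among the top 5 there.

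Mcfd2 had much closer followers. Lamtor5 (0.97), Sec22b (0.97), Bet1l (0.96), Ube2f (0.95) and Rmdn2 (0.94) had the highest correlations with it, and stayed between 0.89 and 0.94 without the 2 female WT HDM libraries. Sec22b and Bet1l encode SNAREs, the proteins that fuse vesicles with their target, Sec22b one of transport between ER and Golgi and Bet1l one of transport to and within the Golgi. Within the family, Lman2l correlated with Mcfd2 at 0.99 over the 8 WT libraries but at 0.66 over all 16 and 0.11 over the 14 without female WT HDM. Ergic1 correlated with Mcfd2 at 0.35 over 16 libraries and at -0.91 over those 14, where the male KO HDM libraries had 72.9 and 69.8 CPM of Mcfd2 and the lowest Ergic1 (150.2 and 149.7 CPM), and the female KO HDM libraries had the lowest Mcfd2 and the highest Ergic1.

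**Figure D3:**
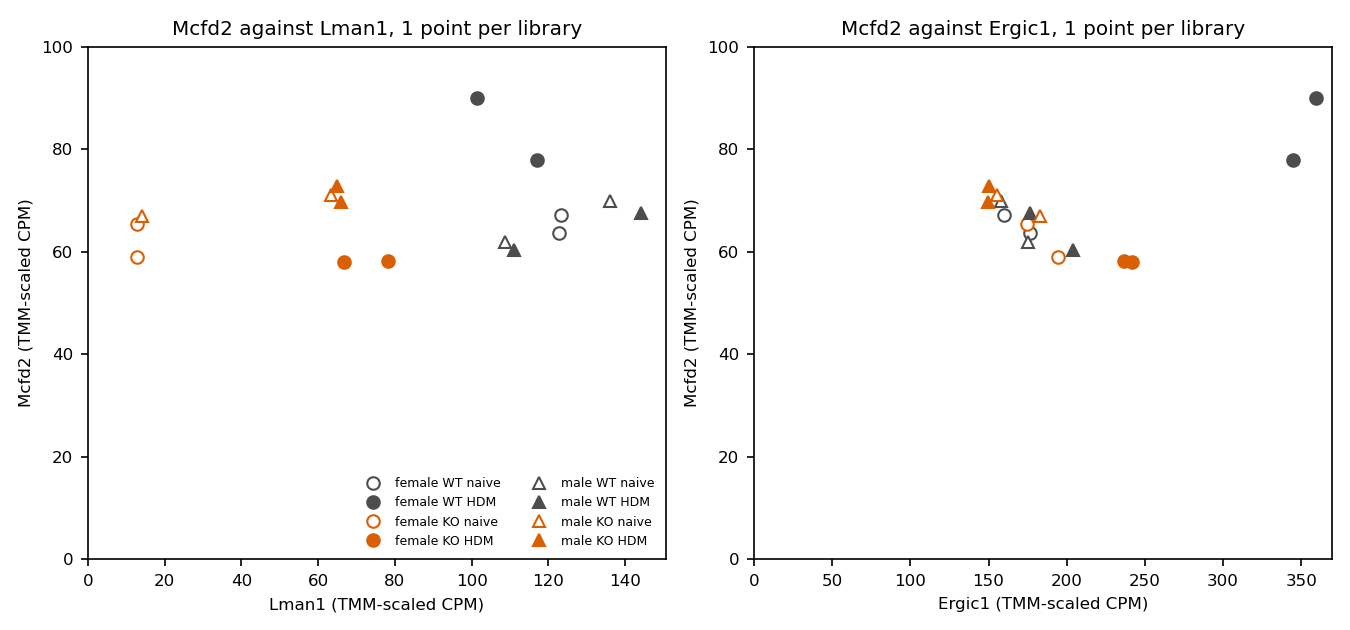
Mcfd2 against Lman1 (left) and against Ergic1 (right), both in TMM-scaled CPM, with 1 point per library. Circles are female, triangles male, WT is grey, KO orange, naive open and HDM filled. On the left, Mcfd2 lies between 58.0 and 72.9 CPM in libraries labelled KO over the whole span of Lman1 from 12.8 to 78.1 CPM, and on the right the female WT HDM points stand away from a falling line of the other 14.

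HDM was then compared with naive within each sex and genotype. In female WT MTECs 6 members were higher with HDM. Ergic1, a cycling membrane protein of the intermediate compartment, went from 160.2 and 177 CPM in naive to 345 and 359 CPM in HDM female WT MTECs (log2 fold change 1.06, SE 0.10, adjusted p = 1.18e-05, edgeR's quasi-likelihood test). Surf4 went from 216 and 224 to 288 and 323 CPM (0.47, SE 0.08, adjusted p = 0.00059, edgeR). Ergic2 rose by 0.48 and Ergic3 by 0.39. In each of these 4 genes both HDM libraries lay above both naive ones. Of all genes 51.2% had an unadjusted p under 0.05 here, in either direction (edgeR). No library left out and none of the 9 other settings ended the calls of these 4 genes.

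Mcfd2 went from 67.1 and 63.6 to 77.9 and 90.1 CPM (log2 fold change 0.36, SE 0.09, adjusted p = 0.00738, edgeR), and Lman2l from 66.4 and 62.7 to 76.4 and 87.6 CPM (0.34, SE 0.11, adjusted p = 0.0286, edgeR). These 2 calls rested on single libraries. Without female WT HDM replicate 2 the fold changes were 0.25 and 0.24 (edgeR adjusted p = 0.0881 and 0.209), and without female WT naive replicate 2 they were 0.32 and 0.30 (0.0594 and 0.142). For Lman2l the call also ended without female WT naive replicate 1 (0.0757) and with library size as the only scaling (0.11). Over all alternatives its adjusted p ranged from 0.0106 to 0.209, and that of Mcfd2 from 0.00156 to 0.0881.

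Thus 6 of the 8 members tested were higher in female WT HDM than naive MTECs, where 43.1% of all genes were called (20.6% higher and 22.4% lower). Lman1 was not among them, with 123 and 123 CPM in naive and 117 and 101 CPM in HDM libraries, nor was Lman2, at 196 and 191 against 196 and 202 CPM. The same 2 HDM libraries had the low secretory and basal and high epithelial and Acta2 levels given above. In this comparison 5 of 5 secretory and 4 of 5 basal markers were called lower, and 4 of 4 epithelial and 2 of 5 fibroblast markers higher, and the part of those in the result was not tested.

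In female KO MTECs 3 of the 8 members were higher with HDM, against 10.4% of all genes called (4.63% higher and 5.77% lower). Lman1 went from 12.8 and 12.8 to 66.6 and 78.1 CPM (log2 fold change 2.5, SE 0.48, adjusted p = 0.00744, edgeR). A level of 63.4 CPM was also found without HDM, in male KO naive replicate 2. Whether HDM or another difference between the cultures raised Lman1 was not tested. Ergic1 went from 175 and 194 to 242 and 237 CPM (0.38, SE 0.10, adjusted p = 0.0333, edgeR) and Ergic2 from 38.0 and 34.9 to 45.4 and 45.7 CPM (0.32, SE 0.09, adjusted p = 0.033). The groups did not overlap in any of the 3, where 25.8% of all genes had an unadjusted p under 0.05 (edgeR). Mcfd2, at 65.5 and 58.9 CPM in naive and 58.0 and 58.1 CPM in HDM libraries, changed by -0.10 (95% interval -0.30 to 0.10), and Surf4 by 0.02 (-0.15 to 0.20). Cell type markers moved here too: 3 of 5 secretory markers were called lower and 2 of 4 epithelial markers higher, summed secretory levels were 7217 and 7869 against 13093 and 15762 CPM, and ciliated levels 64.0 and 69.7 against 108 and 124 CPM. Their part in the result was not tested.

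These 3 calls in female KO MTECs were all lost without female KO naive replicate 1 (edgeR adjusted p = 0.0829 for Lman1, 0.247 for Ergic1 and 0.0947 for Ergic2), without female KO naive replicate 2 (0.057, 0.0647 and 0.193) and without female KO HDM replicate 2 (0.0595, 0.145 and 0.167). Those of Ergic1 (0.121) and Ergic2 (0.113) were also lost without female KO HDM replicate 1. Ergic1 lost its call without either male KO HDM library as well (0.0551 each) and Ergic2 without female WT naive replicate 1 (0.051). The fold change of Lman1 stayed between 2.38 and 2.60 when a library was left out. Upper-quartile scaling, library size as the only scaling and the fit with no filter on low counts also ended the call of Ergic2.

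In males 0 of 8 members were called for HDM in WT (0% of all genes) and 0 in KO MTECs (0%). At an unadjusted p under 0.05 there were 0 and 1 members, and DESeq2 and limma voom called 0 in either. Ergic1 read 176 and 158 CPM in naive and 204 and 177 CPM in HDM male WT libraries, a change of 0.19 with a 95% interval of -0.03 to 0.41. Lman1 in the libraries labelled male KO went from 14.2 and 63.4 to 65.0 and 66.0 CPM, and without male KO naive replicate 2 this difference was called (edgeR adjusted p = 0.00212, with a range of 2.24e-09 to 1 over all alternatives).

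**Figure D4:**
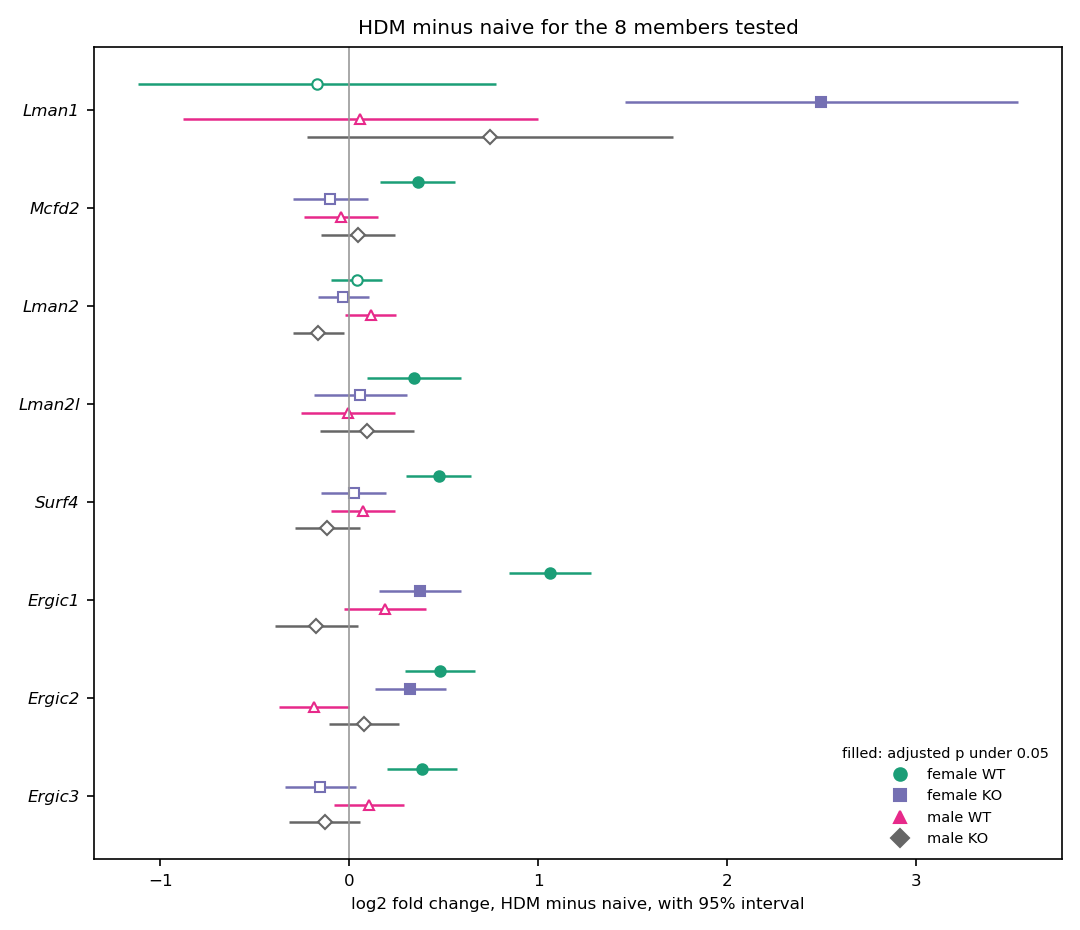
HDM minus naive difference of the 8 members tested, as log2 fold change (x axis) with its 95% interval from edgeR, in each combination of sex and genotype. Filled symbols have an adjusted p under 0.05: 6 in female WT, 3 in female KO and 0 in male MTECs.

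The HDM response was then compared between groups. In females it differed between KO and WT for 5 of 8 members, against 11.2% of all genes called (6.16% higher and 5.08% lower). It was higher in KO for Lman1, by 2.67, and lower for Mcfd2 (-0.46), Surf4 (-0.45), Ergic1 (-0.69) and Ergic3 (-0.54). For Lman1, male KO naive replicate 2 had 63.4 CPM without HDM, near the 65.0 to 78.1 CPM of the KO HDM libraries. Each of these 5 calls was lost when any of several single libraries was left out, 4 libraries for Ergic1, 5 for Ergic3, 6 for Lman1, 8 for Surf4 and 9 for Mcfd2. Without female WT naive replicate 1, female WT HDM replicate 2, female KO naive replicate 2 or female KO HDM replicate 2, 0 members were called, and the count over all genes fell from 1798 to 496 without female KO naive replicate 2. The call of Mcfd2 was also lost with limma voom, with library size as the only scaling and with the compared libraries alone. In males 0 members were called (0% of all genes), with 2 at an unadjusted p under 0.05 and 0 by DESeq2 or limma voom.

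Between the sexes the HDM response of WT MTECs was lower in males for 4 of 8 members, against 24.2% of all genes called (12.8% higher and 11.3% lower): Mcfd2 (-0.41), Surf4 (-0.40), Ergic1 (-0.87) and Ergic2 (-0.67). The calls of Ergic1 and Ergic2 held without any 1 library and under all 9 other settings. Those of Mcfd2 and Surf4 were lost without 9 and 4 of the 16 libraries, female WT HDM replicate 2 among them (edgeR adjusted p = 0.16 and 0.0913, in a range of 0.0196 to 0.16 and 0.00286 to 0.0913 over all alternatives). In KO MTECs 0 of 8 were called (3.56% of all genes, 1.77% higher and 1.79% lower), 2 had an unadjusted p under 0.05, DESeq2 called 1 and limma voom 0, while Ergic1 stood at -0.55 (adjusted p = 0.0536, edgeR).

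KO and WT were last compared within HDM-treated cultures. In females Mcfd2 was at 58.0 and 58.1 CPM in KO against 77.9 and 90.1 CPM in WT (log2 fold change -0.53, SE 0.09, adjusted p = 0.00176, edgeR's quasi-likelihood test). Ergic1 was at 242 and 237 against 345 and 359 CPM (-0.56, SE 0.10, adjusted p = 0.0022, edgeR). Surf4 was at 239 and 224 against 288 and 323 CPM (-0.40), and Ergic3 at 227 and 201 against 281 and 317 CPM (-0.48). The groups did not overlap in any of the 4, but 41.2% of all genes had an unadjusted p under 0.05 here (edgeR). The share of all genes without overlap is not given. The calls of these 4 held without any 1 library.

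These 4 of 8 members were called in female HDM MTECs where 29.2% of all genes were called (14.9% higher and 14.3% lower). Lman1 itself, at 66.6 and 78.1 against 117 and 101 CPM, was not (-0.59, 95% interval -1.55 to 0.36), although it was called without male KO naive replicate 1 or 2 (edgeR adjusted p = 0.00917 and 0.00923, in a range of 5.15e-07 to 0.572 over all alternatives). All 4 comparisons rest on the 2 female WT HDM libraries. Against the female WT naive libraries, the KO HDM values were 58.0 and 58.1 against 67.1 and 63.6 CPM for Mcfd2, 239 and 224 against 216 and 224 CPM for Surf4, 242 and 237 against 160.2 and 177 CPM for Ergic1, and 227 and 201 against 234 and 223 CPM for Ergic3. Without female WT HDM replicate 2 the count over all genes fell from 4669 to 1701. Between these groups 4 of 5 secretory and 4 of 5 basal markers were called higher in KO, and 2 of 4 epithelial and 3 of 5 fibroblast markers lower (fibroblast median -3.33), and their part in the result was not tested.

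In male HDM MTECs 0 of 8 members were called between KO and WT (0% of all genes). At an unadjusted p under 0.05 (edgeR) there were 3, and 18.1% of all genes. DESeq2 called 2, Lman2 and Ergic1, and limma voom 0. Lman1, at 65.0 and 66.0 against 111 and 144 CPM, did not overlap between the groups (-0.96, 95% interval -1.92 to -0.00), and was called without male KO naive replicate 1 or 2 (edgeR adjusted p = 0.0329 and 0.0332, in a range of 6.43e-19 to 0.642 over all alternatives). Mcfd2 read 72.9 and 69.8 CPM in KO and 60.4 and 67.5 CPM in WT libraries, which did not overlap but went the other way from females (0.16, 95% interval -0.04 to 0.36). Ergic1 read 150.2 and 149.7 against 204 and 177 CPM (-0.34, 95% interval -0.56 to -0.13, adjusted p = 0.17, edgeR), and Lman2 187 and 192 against 224 and 213 CPM (-0.21). Averaged over both sexes, 3 of 8 members were lower in KO HDM MTECs, Surf4 (-0.28), Ergic1 (-0.45) and Ergic3 (-0.31), where 20.2% of all genes were called (10.2% higher and 10% lower).

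Between the sexes, 0 members were called in naive WT (0.1% of all genes, 0.075% higher and 0.025% lower) or naive KO MTECs (0.188%, 0.119% higher and 0.0688% lower), with 1 and 2 at an unadjusted p under 0.05 and 0 by DESeq2 or limma voom in both. With HDM, 6 of 8 were lower in male than in female WT MTECs, where 41.6% of all genes were called (21.3% higher and 20.3% lower): Lman2l, Mcfd2, Surf4, Ergic1, Ergic2 and Ergic3. This comparison shares its 2 female WT HDM libraries with that of HDM and naive. Here 5 of 5 secretory and 4 of 5 basal markers were called higher in males, and 3 of 4 epithelial and 3 of 5 fibroblast markers lower (fibroblast median -3.58), and their part in the result was not tested. Ergic1 differed most (-0.89, SE 0.10, adjusted p = 4.22e-05, edgeR), and without female WT HDM replicate 2 the 2 calls left were those of Ergic1 and Ergic2. In HDM KO MTECs 2 of 8 were called against 25.3% of all genes (12.9% higher and 12.4% lower). Mcfd2 was higher in males (0.30, adjusted p = 0.034, edgeR), a call lost without any 1 of the 4 libraries compared (0.104 to 0.164), and Ergic1 was lower in males (-0.67, SE 0.10, adjusted p = 0.000716, edgeR).

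Other genes of the early secretory pathway were described from lists, without a test over a list. The shares of all genes called, against which their counts are read, were 20.6% higher and 22.4% lower in female WT HDM against naive MTECs, and 14.9% higher and 14.3% lower in female HDM KO against WT MTECs. Among 20 other cargo receptors and adaptors tested, 11 were higher and 2 lower in female WT HDM than naive MTECs, with a median log2 fold change of 0.32 against -0.02 over all genes tested. The p24 proteins Tmed5 (0.96), Tmed1 (0.58) and Tmed7 (0.49), which carry GPI-anchored cargo among others, had the smallest p. Of the same 20, 0 were higher and 12 lower in female HDM KO than WT MTECs (median -0.27). Tmed1 (-0.62), Tmed4 (-0.45) and Tmed5 (-0.74) led the list. Both comparisons use the same 2 female WT HDM libraries, once on each side, so they are not independent, here and for the lists below. The marker shifts in those libraries are given above, and their part in the list results was not tested.

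The coats that bend the vesicle membrane had genes called in both directions. Of 15 genes of the COPII coat and its exit sites, 5 were higher and 4 lower in female WT HDM MTECs, where 20.6% and 22.4% of all genes were. Sec23b fell by 1.94, from between 492 and 639 CPM to between 139 and 155 CPM, Sec24b fell by 0.53 and Sec24d rose by 0.69. Sec23b, an inner coat subunit, also fell by 1.34 in female KO MTECs, the 1 gene of the 15 called there. Of 11 genes of the COPI coat, which returns proteins to the ER, 0 were higher and 3 lower in female WT HDM MTECs: Copg2 (-0.43), Copz1 (-0.24) and Gbf1 (-0.44), a share near that of all genes. In female HDM KO against WT, 2 COPII genes were higher and 5 lower, and 2 COPI genes higher and 1 lower.

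Targets of the unfolded protein response, the program that raises the folding capacity of the ER, were also followed. In female WT HDM MTECs 14 of 22 rose and 4 fell, with a median of 0.47, where 20.6% of all genes rose and 22.4% fell. Manf rose by 1.01 and the chaperone Canx by 0.90, whereas Herpud1 fell by 1.15. In female HDM KO against WT, 1 was higher (Herpud1, 0.65) and 10 lower, where 14.9% and 14.3% of all genes were, Manf (-0.63) and Canx (-0.53) among them. Between KO and WT naive MTECs edgeR called 0 of all 15993 genes in either sex (203 in females and 867 in males at an unadjusted p under 0.05), DESeq2 1 in each and limma voom 0. In the average over the 4 strata Herpud1 was the 1 target called (0.26).

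**Figure D5:**
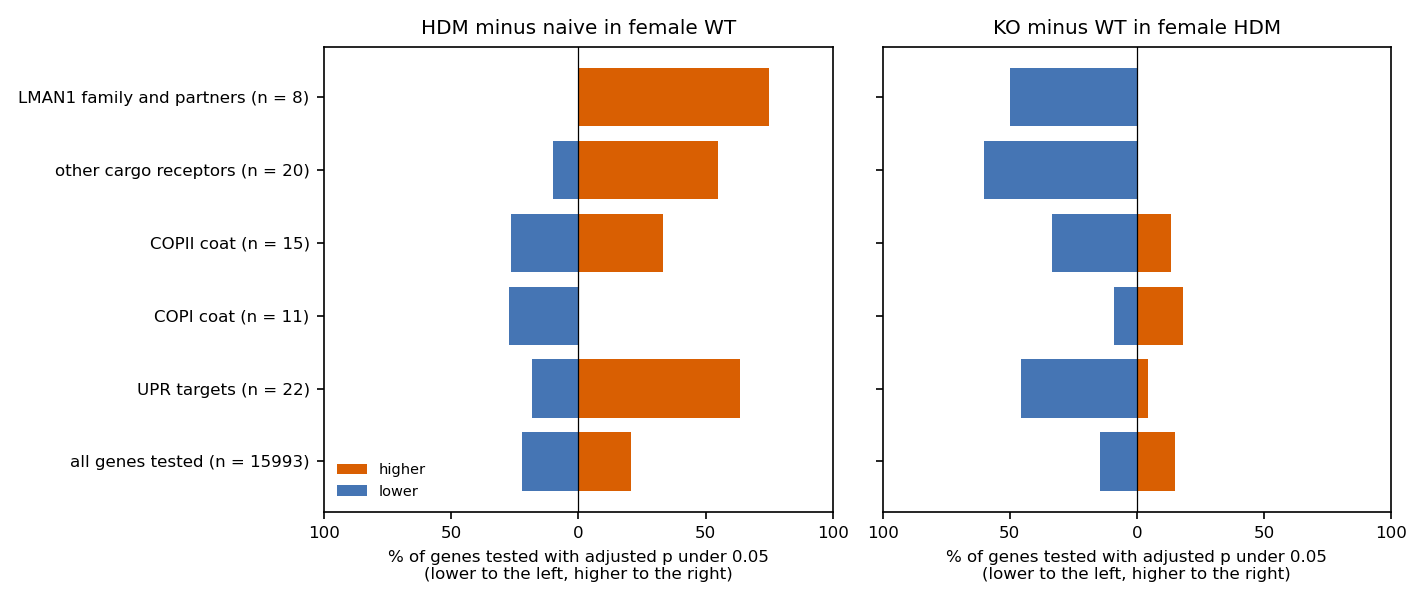
Percent of the genes tested in each list that were called higher (orange, to the right) or lower (blue, to the left) in female WT HDM against naive MTECs (left) and in female HDM KO against WT MTECs (right), with the 8 members and all 15993 genes beside them. Other cargo receptors, targets of the unfolded protein response and the members share the main direction in each panel, and the COPI coat does not. In that order, 11, 14 and 6 genes were higher and 2, 4 and 0 lower on the left. On the right 12, 10 and 4 were lower and 0, 1 and 0 higher. Both panels use the same 2 female WT HDM libraries, once on each side of the difference, and are not independent.

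Of genes reported as cargo of LMAN1 and MCFD2, 5 of 10 were tested. F5 and F8, which encode coagulation factors V and VIII, were called by edgeR in none of the comparisons. Between KO and WT they changed by -0.17 and 0.13 in female HDM MTECs, and by -0.46 and 0.09 averaged over the 4 strata. The lysosomal proteases Ctsz and Ctsc were higher in female WT HDM MTECs (1.04 and 0.85), where 43.1% of all genes were called, and Ctsz (-0.97), Lgals3bp (-0.84) and Ctsc (-0.70) were lower in female HDM KO than WT MTECs, where 29.2% were called. Ctsz was between 212 and 258 CPM in female WT HDM and at most 121 CPM in the other 14 libraries. Averaged over the 4 strata, Ctsz (-0.22, adjusted p = 0.0162, edgeR) and Ctsc (-0.48, adjusted p = 0.0217, edgeR) were lower in KO, where 5.51% of all genes were called. For Ctsz this average came from female HDM MTECs, with -0.03 in female naive, 0.12 in male naive and -0.00 in male HDM MTECs. For Ctsc these 3 values were -0.04, -0.55 and -0.61, and edgeR called neither gene in any of the 3. Of SURF4 cargo 2 of 7 were tested, and Nucb1 was higher in female WT HDM (0.43) and lower in female HDM KO (-0.57).

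The 6 tested genes that start within 1 Mb of Lman1 on chromosome 18 were also followed, since they are inherited with the allele. Over the 4 strata 2 of them were lower in KO, Pmaip1 (-0.47) and Oacyl (-1.98), where 2.74% of all genes were lower. Pmaip1 was called in female HDM MTECs (-1.17) and in none of the other 3 strata (-0.26, -0.20 and -0.23), and Oacyl in none of the 4 (-0.99 to -3.39). Pmaip1 was between 29.4 and 41.6 CPM in libraries labelled KO and between 34.4 and 107.6 CPM in WT, which overlap, and Oacyl was under 1 CPM throughout.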

How the data were processed

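RNA-seq counts per gene were deposited for 16 MTEC libraries, 2 in each of 8 groups taken from the sample labels. The deposited counts are whole numbers of reads per Ensembl gene, not normalized. Per the labels, the submitters' processing notes name Trimmomatic 0.36, STAR 2.5.2b, featureCounts (Subread 1.5.2), DESeq2 and GRCm38. The strand setting is not given in the sources used here. Symbols came from the GENCODE M21 annotation (GRCm38), which held 49056 of the 49315 Ensembl genes.

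All libraries entered 1 edgeR 4.0.16 fit (R 4.3.3) with 8 group means, TMM scaling, filterByExpr by group and the quasi-likelihood F-test, and p-values were adjusted over the 15993 genes tested, with a threshold of 0.05. SEs were derived from the F statistic. The 15 comparisons of sex, genotype and treatment were tested as contrasts, and 4 more (the naive and HDM averages of KO minus WT, and male minus female responses to HDM in WT and in KO) were added after the data were seen. CPM values were TMM-scaled. Correlations used log2(CPM + 1). The 2 libraries of a group differed beyond counting error, and the titles call them biological replicates. As tracheas were pooled and the sources used here do not say whether the pools were separate, p-values measure the spread between these libraries. The fit was tested on simulated data. Alternatives were other scalings and filters, a robust fit, the compared libraries alone, a replicate block, limma 3.58.1 voom, DESeq2 1.42.0 and leaving out each library. Named genes were the 9 members, the 3 genes of smallest p among those called in each list, and the 5 genes most correlated with Lman1 and with Mcfd2. F5 and F8 were named as well, as the cargo given in the background. Pmaip1, Oacyl, Sec23b and Ctsz levels, and the relations without female WT HDM libraries, were chosen after values were seen. The members and lists were chosen with earlier results of these data known.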

Additional observations from a re-analysis of the deposited data

Results flagged for a closer look

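The response to HDM differed between female KO and WT MTECs by the interaction term of edgeR's fit in 5 of 8 members tested. Of all genes 11.2% were called there (6.16% higher and 5.08% lower). The difference (KO minus WT, log2) was 2.67 for Lman1, -0.46 for Mcfd2, -0.45 for Surf4, -0.69 for Ergic1 and -0.54 for Ergic3. Lman1 also differed between KO cultures without HDM, at 14.2 and 63.4 CPM in the male KO naive libraries. Each call was lost without some single library, and all 5 without female WT naive replicate 1, female WT HDM replicate 2, female KO naive replicate 2 or female KO HDM replicate 2.

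The response to HDM also differed between male and female WT MTECs in 4 of 8 members, against 24.2% of all genes called (12.8% higher and 11.3% lower). The difference (male minus female, log2) was -0.41 for Mcfd2, -0.40 for Surf4, -0.87 for Ergic1 and -0.67 for Ergic2. Both sets of differences use the 2 female WT HDM libraries, in which secretory and basal markers were low and epithelial markers and Acta2 high. The part of these in the results was not tested.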

How the results depend on the processing

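With 2 libraries in a group, leaving out 1 leaves a lone library that is assumed to vary like the others. Of 3792 refitted member differences 76 changed sign, and 0 of those had been called. Members called between KO and WT on average over the 4 strata went from 1 to 2 with the replicate block, no filter, a minimum of 10 counts or scaling by library size alone, to 3 with DESeq2, and to between 1 and 3 without 1 library. Female naive KO minus WT went from 0 to 1 with no filter, the compared libraries alone or DESeq2, male naive from 0 to 1 with no filter, and the naive average from 0 to 1 with no filter, the replicate block or DESeq2. Each was 0 or 1 without 1 library. Male HDM KO minus WT went from 0 to 2 with no filter or DESeq2 (0 to 1 without 1 library), and the HDM average from 3 to 5 with at least 10 counts or DESeq2. For HDM in female KO 0 to 3 members were called without 1 library. HDM in male KO, sex in naive KO and the male KO minus WT response each went from 0 to 1 with no filter and were 0 to 1 without 1 library. Sex in HDM WT went from 6 to 2 with the compared libraries alone (2 to 6 without 1 library), and in HDM KO from 2 to 1 with library size only or the replicate block (1 to 2). The female KO minus WT response had 0 to 5 without 1 library. The male minus female response went from 4 to 2 in WT with no filter or the compared libraries alone (2 to 4), and from 0 to 2 in KO with no filter and 1 with the replicate block or DESeq2 (0 to 1). Apart from the libraries named beside the results, the cause was not tested. With no filter the fit gave all genes nearly 1 shared spread (235176 degrees of freedom for Lman1 against 11.5), so its extra calls do not use each gene's own spread.

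Over all genes, 881 calls in the KO minus WT average became 1510 with DESeq2, 2182 with no filter and 1424 with the replicate block, and 307 without male KO HDM replicate 2. HDM in female KO had 1664, 373 without female KO HDM replicate 2, 2804 with the compared libraries alone and 2717 with no filter. HDM in female WT had 6887, and 4576 without female WT naive replicate 1. The female KO minus WT response had 1798, and 3029 with no filter. Male HDM KO minus WT had 0, and 538 with DESeq2. The labels do not say that replicate numbers pair libraries across groups, and deviations of same-numbered libraries correlated between -0.164 and 0.483. With the replicate block, 148 of 152 member calls were as in the fit without it, 3 were gained and 1 was lost.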

Other observations

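Surf4 and Ergic1, chosen here after their values were seen, had followers of their own. The 5 genes whose level over the 16 libraries was most like that of Surf4 were Vcp (Pearson correlation 0.97), Plbd2 (0.97), Lamp1 (0.97), Kdelr2 (0.97) and Tpd52 (0.97), of log2(CPM + 1). Vcp encodes an ATPase that extracts proteins from the ER for degradation, and Kdelr2 a receptor that returns ER residents from the Golgi. Those most like Ergic1 were Tmem63b, Elk3, Cfl1, Cacnb3 and Slc29a4, each at 0.99. Within the family Surf4 and Ergic3 correlated at 0.89 and Surf4 and Ergic1 at 0.87. Over the 14 libraries without female WT HDM these family values were 0.49 and 0.52. There Surf4 correlated with Vcp at 0.93, Plbd2 at 0.85, Tpd52 at 0.84, Lamp1 at 0.82 and Kdelr2 at 0.80. The 5 genes most like Ergic1 stayed between 0.95 and 0.98. These values describe libraries that share sex, genotype or treatment and may share culture pools, and the female WT HDM libraries lie at the upper end of both genes.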
